A study of Rattus norvegicus with 22 samples.

Results

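Gastrocnemius muscle was compared with epididymal fat of obese rats kept at rest in normoxia, across all nuclear genes of the expression table. The members are 6 of the 22 libraries of the series, 3 of muscle (MC) and 3 of fat (FC), and 32586 of the 32623 annotated genes, those whose position is not on the mitochondrial genome. The series crosses muscle and fat with rest or treadmill exercise in normoxia or hypoxia. The MC and FC rats were male Sprague Dawley rats, 3 weeks old at the start, made obese by a high-fat feed ("trophic obesity" in the labels), which both groups share. They were left in normoxia without exercise ("normoxia quiet") and were fasted before sampling. No lean or chow-fed library was analysed here, so the tissue difference is that of obese animals. The methods count 22 rats for the 22 libraries, and neither the labels nor the methods say whether a muscle and a fat library came from the same rat. The p-values below therefore measure the spread between these 3 and 3 libraries.

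Skeletal muscle fibres are long, multinucleate cells in which actin and myosin filaments slide past each other when calcium leaves the sarcoplasmic reticulum, and fast fibres draw much of their ATP from creatine phosphate and glycogen. White adipocytes hold a lipid droplet, make and break down triglyceride, and secrete hormones such as leptin and adiponectin. Both tissues also contain vessels, connective tissue, nerve and immune cells, and the epididymal depot is covered by mesothelium and lies beside the testis and epididymis.

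The libraries differed in depth. Mitochondrially encoded genes took 93.5 ± 3.28% of all counts in MC and 15.9 ± 0.785% in FC (SD, n = 3 each), so few nuclear counts remained in MC. Nuclear genes received 1798025, 1032959 and 4230171 counts in MC1, MC2 and MC3, against 34569284, 36162561 and 26496362 in FC1, FC2 and FC3, and 14050 ± 1015 nuclear genes had a count in MC, against 18270 ± 281 in FC (SD, n = 3 each). The 100 highest nuclear genes took 35.4 ± 1.07% of nuclear counts in MC and 30.4 ± 2.17% in FC (SD, n = 3; exact permutation p = 0.1, two-sided, the smallest that 3 against 3 allows). A group of 3 libraries at 0 counts allows up to 3 counts over the group, which is 0.413 counts per 1000000 TMM-scaled nuclear counts (CPM) in MC and 0.0316 CPM in FC. Values below are in CPM unless another unit is given, and fold changes are log2 of MC over FC from edgeR's quasi-likelihood fit, with Benjamini-Hochberg adjusted p-values over all genes tested.

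The marker lists matched the tissue labels. The 9 skeletal muscle fibre markers in the table summed to 76179, 69168 and 38823 CPM in MC1, MC2 and MC3, against 14.3, 8.07 and 54.4 CPM in FC1, FC2 and FC3. The 10 adipocyte markers summed to 757, 1409.6 and 1552.5 CPM in MC, against 54493, 34410 and 28272 CPM in FC. FC3 carried the most fibre transcripts of the FC libraries and MC3 the most adipocyte transcripts of the MC libraries, and each called value that moved by more than 1.5 times without a library is given without it as well. Where leaving out a library leaves a tissue with no count of the gene, the fitted fold change depends on the prior count of the fit and is no bound. In such bulk samples, fewer cells of a type and less RNA per cell cannot be told apart.

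Of 14323 nuclear genes tested, 1968 (13.7%) were higher and 2806 (19.6%) lower in MC at an adjusted p under 0.05, which is 33.3% of genes in all, and the genes past this threshold are called higher or lower below. By a second rule, a test of change beyond 2-fold, 859 genes (6.0%) were higher and 1319 (9.21%) lower. The median log2 fold change over all genes tested was -0.10 and 46.3% of the genes were positive. The 3 MC values did not overlap the 3 FC values for 7085 genes (49.5%). Of the genes tested, 49 had no count in any FC library and 249 none in any MC library. The fat libraries were the deeper ones, and lower genes outnumbered higher ones with fat counts at muscle depth too, by a smaller margin. The cause of the larger number of lower genes was not tested. With fat counts thinned at random to muscle depth, 1921 genes were higher and 2213 lower in MC of 11033 tested. Where no member of a list below was called in a direction by edgeR, 0 members passed an unadjusted p under 0.05 and 0 were called by DESeq2 in that direction, except 1 phosphagen and purine gene that was lower at an unadjusted p and 1 lipogenic gene that was higher by both measures. Among the genes given below, Myh7, Ckm, Jph1, Ampd1, Pc, Cpt1b, Esrra, Srebf1, Lipe, Srebf2, Rarres2, Igf2, Loxl2, Cfd, Capn3, Fabp3, Tpt1, Fth1, Art1, Itga7 and Pdgfra overlap another annotated gene, and since the strand setting of the counting is not given in the sources used here, reads of the overlap cannot be told apart.

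The genes of the contractile filaments had the largest medians of the program lists. All 13 fast fibre contractile genes in the table were higher in MC, with a median log2 fold change of 11.29, and so were 10 of the 11 slow fibre genes tested, with a median of 9.66. All 13 fast genes and 9 slow genes also passed beyond 2-fold. Acta1, the actin of the skeletal thin filament, had 37812, 33046 and 17281 CPM in the MC libraries, against 1.01, 0.142 and 22.1 CPM in the FC libraries (log2 fold change 11.89 ± 2.001 (SE), adjusted p = 0.00193). Mylpf, the fast regulatory light chain of myosin, had 4622, 3852 and 3031 CPM in the MC libraries, against 0.977, 1.08 and 1.797 CPM in the FC libraries (log2 fold change 11.54 ± 0.55 (SE), adjusted p = 9.5e-06). Tnnc2, the calcium-binding troponin C of fast fibres, had 4150.5, 3762 and 2549 CPM in the MC libraries, against 0.0651, 0 and 1.83 CPM in the FC libraries (log2 fold change 12.46 ± 1.45 (SE), adjusted p = 0.00027). The groups did not overlap for any of these 3 genes, and FC3 was the highest of the fat libraries in each. Without FC2 the log2 fold changes were 11.30 for Acta1 and 11.83 for Tnnc2, and without FC3 they were 15.69 and 16.48. The fast myosin heavy chain genes Myh1 and Myh4 were not matched in the table and are not analysed here.

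Slow fibre transcripts were also higher in MC. Myh7, the slow myosin heavy chain, had 349, 351 and 114 CPM in MC and no count in any FC library, which makes it at least 6539-fold higher in MC. Tnnt1, the slow troponin T that ties troponin to tropomyosin, had 247, 312 and 102 CPM in the MC libraries, against 0.260, 0.256 and 0.277 CPM in the FC libraries (log2 fold change 9.66 ± 0.54 (SE), adjusted p = 9.54e-06). Tnnc1, the troponin C of slow and cardiac fibres, had 169, 162 and 75.2 CPM in the MC libraries, against 1.498, 1.19 and 0.518 CPM in the FC libraries (log2 fold change 6.96 ± 0.51 (SE), adjusted p = 3.11e-05). MC3 was the lowest of the muscle libraries for all 3 genes. Per length, in nuclear transcripts per 1000000 (TPM, rescaled to nuclear genes alone), fast Tnnc2 stood at 5649 ± 1415 and slow Tnnc1 at 199.8 ± 78.4 TPM in MC (SD, n = 3).

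The promoters of 2 muscle genes with large fold changes in this contrast are shown as examples of the regulatory sequence of the contractile and phosphagen genes. They are RefSeq windows on GRCr8 of 250 bases before to 50 bases after the start of the transcript, for Ckm (muscle creatine kinase) at chr1:88189211-88189510 on the plus strand and for Acta1 at chr19:68784145-68784444 on the minus strand. Capitals mark the E-box CAGCTG bound by myogenic factors, the TATA box TATAAA and the serum response factor CArG box, each searched on both strands.
Ckm: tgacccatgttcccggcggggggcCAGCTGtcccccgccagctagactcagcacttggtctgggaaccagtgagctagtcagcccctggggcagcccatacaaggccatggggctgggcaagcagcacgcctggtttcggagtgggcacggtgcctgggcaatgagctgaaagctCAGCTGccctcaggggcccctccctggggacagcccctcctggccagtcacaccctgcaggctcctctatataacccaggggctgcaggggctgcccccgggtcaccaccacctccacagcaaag
Acta1: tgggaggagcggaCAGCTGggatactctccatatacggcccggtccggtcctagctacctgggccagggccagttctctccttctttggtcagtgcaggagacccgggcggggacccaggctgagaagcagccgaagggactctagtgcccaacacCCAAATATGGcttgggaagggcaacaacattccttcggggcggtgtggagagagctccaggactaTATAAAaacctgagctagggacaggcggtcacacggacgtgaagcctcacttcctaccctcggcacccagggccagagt
Ckm held CAGCTG starting 226 and 75 bases before the start. Acta1 held it at 237 bases, a CArG box at 94 bases and TATAAA at 29 bases before the start. Of the 18 fast and slow contractile genes with a RefSeq window, 27.8% held CAGCTG, 33.3% TATAAA and 11.1% a CArG box, against 15.1%, 14.2% and 1.64% of all 33469 rat windows. Of the 20 windows of excitation-contraction coupling genes, 50% held CAGCTG. Windows of fat genes held it at a share like that of the contractile genes, 29.4% of the 17 of adipocyte identity and 27.8% of the 18 of lipogenesis, and 29.4% of the adipocyte identity windows held TATAAA. A match describes letters in a window and is no evidence of binding.

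**Figure D1:**
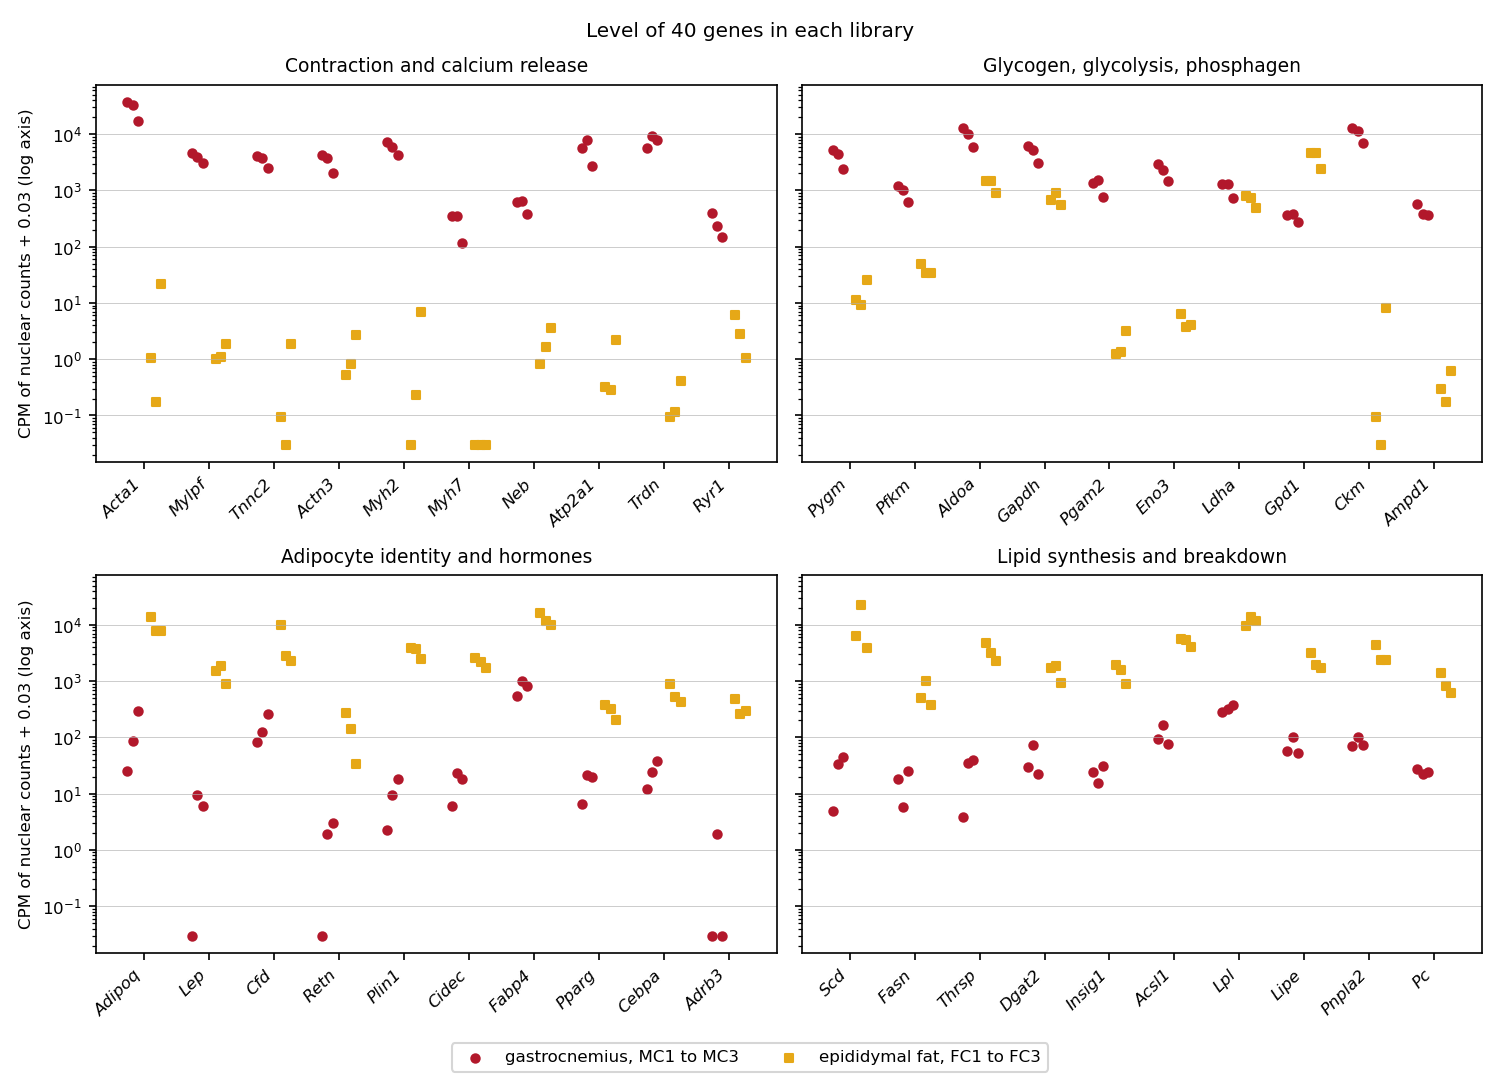
CPM of nuclear counts (log axis) of 40 genes in each of the 3 MC libraries (circles) and, to the right, the 3 FC libraries (squares), in panels for contraction and calcium release, glycogen, glycolysis and phosphagen, adipocyte identity and hormones, and lipid synthesis and breakdown. The contraction genes lie above 100 CPM in every MC library and at or below 22.1 CPM in every FC library, and in both lower panels every FC library lies above every MC library.

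Genes that build the Z-disc, the M-band and the sarcomere scaffold followed the filaments. Of 23 tested, 22 were higher in MC and none lower, with a median log2 fold change of 5.66. Klhl41, a kelch protein that keeps the sarcomere's nebulin stable, had 470.0, 497 and 331 CPM in the MC libraries, against 0.195, 0.426 and 0.449 CPM in the FC libraries (log2 fold change 10.21 ± 0.42 (SE), adjusted p = 9.5e-06). Cmya5 (myospryn), a protein of the costamere, had 438, 602 and 368 CPM in the MC libraries, against 6.902, 7.3005 and 13.5 CPM in the FC libraries (log2 fold change 5.66 ± 0.39 (SE), adjusted p = 2.31e-05). Des, the intermediate filament desmin that links Z-discs and that smooth muscle also makes, had 3400.5, 3607 and 1702 CPM in the MC libraries, against 65.4, 34.1 and 297 CPM in the FC libraries (log2 fold change 4.46 ± 0.82 (SE), adjusted p = 0.00296). FC3 was again the highest fat library, and without it the log2 fold change of Des was 5.91. Flnc, the filamin of muscle, had 170.3, 129.6 and 83.8 CPM in the MC libraries, against 16.1, 14.97 and 54.7 CPM in the FC libraries (log2 fold change 2.16 ± 0.52 (SE), adjusted p = 0.0116), which became 3.07 without FC3 and lost its call without MC1 (adjusted p = 0.0532).

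The calcium release machinery was also far higher in MC. Of 23 excitation-contraction coupling genes tested, 22 were higher in MC, 20 of them beyond 2-fold, and 1 was lower, with a median log2 fold change of 8.42 (7.41 with genes at 0 in fat set to their lower bound). Trdn, triadin, which anchors calsequestrin to the release channel, had the largest fold change of the genes that the naming rule took. It had 5605, 9197 and 7749 CPM in the MC libraries, against 0.0651, 0.0852 and 0.380 CPM in the FC libraries (log2 fold change 15.36 ± 0.88 (SE), adjusted p = 1.01e-05, and a log2 fold change of 16.48 without FC3). Trdn lies at chr1:25403390-25839345 on the minus strand in the Ensembl 99 annotation that the table follows. Atp2a1, the SERCA1 pump that returns calcium to the store, had 5628, 7737 and 2721 CPM in the MC libraries, against 0.293, 0.256 and 2.21 CPM in the FC libraries (log2 fold change 12.52 ± 1.15 (SE), adjusted p = 7.65e-05, and a log2 fold change of 14.25 without FC3). Ryr1, the release channel itself, had 395, 236 and 148 CPM in the MC libraries, against 6.15, 2.76 and 1.04 CPM in the FC libraries (log2 fold change 6.29 ± 0.69 (SE), adjusted p = 0.000197, and a log2 fold change of 7.09 without FC1). Jph1, junctophilin, which holds the T-tubule against the reticulum, had 109, 123 and 79.97 CPM in the MC libraries, against 0.391, 0.511 and 0.277 CPM in the FC libraries (log2 fold change 8.001 ± 0.36 (SE), adjusted p = 9.5e-06). For all 4 genes the lowest muscle library was above the highest fat library.

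The exception was Chrna1, the α subunit of the muscle acetylcholine receptor. It had 12.7, 2.88 and 2.27 CPM in the MC libraries, against 24.1, 44.3 and 26.9 CPM in the FC libraries (log2 fold change -2.45 ± 0.62 (SE), adjusted p = 0.0143, and a log2 fold change of -3.71 without MC1), so every FC library was above every MC library for this gene.

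Transcription factors of the muscle lineage were higher in MC. Of 18 myogenic regulators tested, 11 were higher in MC and none lower. Myod1, a myogenic basic helix-loop-helix factor, had 16.5, 14.4 and 12.7 CPM in the MC libraries, against 0, 0 and 0.0691 CPM in the FC libraries (log2 fold change 8.98 ± 0.90 (SE), adjusted p = 0.000121, and a log2 fold change of 10.76 without FC3). Myf6, the member of that family that prevails in mature fibres, had 73.8, 96.02 and 59.8 CPM in the MC libraries, against 0.0651, 0 and 0 CPM in the FC libraries (log2 fold change 11.38 ± 0.63 (SE), adjusted p = 9.5e-06, and a log2 fold change of 13.09 without FC1). Vgll2, a muscle cofactor of TEAD proteins, had 42.4, 32.6 and 22.7 CPM in MC and no count in FC, at least 919-fold higher. Mstn, the secreted brake on muscle growth, had 24.2, 28.8 and 37.7 CPM in the MC libraries, against 0.391, 0.455 and 1.94 CPM in the FC libraries (log2 fold change 5.04 ± 0.67 (SE), adjusted p = 0.000562, and a log2 fold change of 6.17 without FC3). Pax7, which marks satellite cells, had no count in any of the 6 libraries.

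Glycolysis and glycogen breakdown were higher in MC. Of 26 genes tested, 17 were higher and 2 lower, with a median log2 fold change of 2.06. Pygm, the muscle glycogen phosphorylase, had 5242, 4425 and 2362 CPM in the MC libraries, against 11.1, 9.09 and 25.3 CPM in the FC libraries (log2 fold change 8.05 ± 0.65 (SE), adjusted p = 4.44e-05, and a log2 fold change of 8.67 without FC3). Pfkm, the muscle phosphofructokinase that commits glucose to glycolysis, had 1207, 1006 and 633 CPM in the MC libraries, against 48.9, 34.1 and 34.4 CPM in the FC libraries (log2 fold change 4.60 ± 0.35 (SE), adjusted p = 3.42e-05). Eno3, the muscle enolase, had 2943, 2343 and 1464 CPM in the MC libraries, against 6.45, 3.72 and 4.08 CPM in the FC libraries (log2 fold change 8.89 ± 0.50 (SE), adjusted p = 9.75e-06). Aldoa, an aldolase that fat also made, had 12936, 10007 and 5992 CPM in the MC libraries, against 1473, 1489.7 and 918 CPM in the FC libraries (log2 fold change 2.90 ± 0.50 (SE), adjusted p = 0.00217). Hexokinase 2 (Hk2) was not called, at 48.5, 34.6 and 20.9 CPM in the MC libraries, against 55.9, 59.99 and 50.5 CPM in the FC libraries (log2 fold change -0.70 ± 0.31 (SE), adjusted p = 0.118), and neither was lactate dehydrogenase A (Ldha), at 1302, 1289.5 and 719.8 CPM in the MC libraries, against 808, 735 and 483 CPM in the FC libraries (log2 fold change 0.71 ± 0.34 (SE), adjusted p = 0.142). The 2 genes lower in MC were Gpd1, which makes glycerol 3-phosphate for triglyceride synthesis, with 361, 374 and 275 CPM in the MC libraries, against 4612, 4552 and 2438 CPM in the FC libraries (log2 fold change -3.52 ± 0.41 (SE), adjusted p = 0.000254), and Pfkfb1, a bifunctional enzyme that sets fructose 2,6-bisphosphate, with 39.7, 70.1 and 39.8 CPM in the MC libraries, against 139.9, 193 and 106 CPM in the FC libraries (log2 fold change -1.58 ± 0.32 (SE), adjusted p = 0.00489).

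Enzymes that buffer ATP were the other metabolic mark of MC. Of 12 phosphagen and purine nucleotide genes tested, 7 were higher in MC and none lower, with a median log2 fold change of 0.94. Ckm had 12651, 11254 and 7023 CPM in the MC libraries, against 0.0651, 0 and 7.98 CPM in the FC libraries (log2 fold change 11.92 ± 2.03 (SE), adjusted p = 0.00205), and it was 11.32 without FC1, 11.30 without FC2 and 18.04 without FC3, the fat library that held nearly all of its fat counts. Ampd1, the muscle AMP deaminase, had 574, 375 and 367 CPM in the MC libraries, against 0.260, 0.142 and 0.588 CPM in the FC libraries (log2 fold change 10.38 ± 0.54 (SE), adjusted p = 9.5e-06, and a log2 fold change of 11.08 without FC3). Adssl1, the muscle adenylosuccinate synthase of the same cycle, had 631, 586 and 289.9 CPM in the MC libraries, against 2.21, 6.28 and 2.07 CPM in the FC libraries (log2 fold change 7.14 ± 0.59 (SE), adjusted p = 4.72e-05, and a log2 fold change of 7.87 without FC2). Ckb, the brain-type creatine kinase, was closer between the tissues, with 302, 299 and 206 CPM in the MC libraries, against 114, 181 and 152 CPM in the FC libraries (log2 fold change 0.85 ± 0.26 (SE), adjusted p = 0.0325), and lost its call without FC1, MC1 or MC2 (adjusted p = 0.0905, 0.116 and 0.116).

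Nuclear-encoded respiratory genes did not separate the tissues as a group. Of 55 tested, 9 were higher and 4 lower (2 with fat counts thinned at random to muscle depth or with all 22 libraries in the fit), with a median log2 fold change of 0.19. The largest fold changes among the named ones were those of muscle isoforms. Cox6a2, the muscle form of cytochrome oxidase subunit VIa, had 560.4, 522 and 374 CPM in the MC libraries, against 0.0651, 0.455 and 0.277 CPM in the FC libraries (log2 fold change 10.77 ± 0.57 (SE), adjusted p = 9.5e-06, and a log2 fold change of 11.42 without FC2). Cox8b, the muscle and brown fat form of subunit VIII, had 154, 214 and 106 CPM in the MC libraries, against 0, 0 and 0.0691 CPM in the FC libraries (log2 fold change 12.43 ± 0.65 (SE), adjusted p = 9.5e-06, and a log2 fold change of 14.20 without FC3). Of the shared subunits, Atp5g1 of the ATP synthase ring had 194, 279 and 134 CPM in the MC libraries, against 71.2, 56.9 and 42.3 CPM in the FC libraries (log2 fold change 1.83 ± 0.32 (SE), adjusted p = 0.00228). Sdha, the catalytic subunit of complex II, was lower in MC, with 202, 259 and 169 CPM in the MC libraries, against 543, 394 and 357 CPM in the FC libraries (log2 fold change -1.04 ± 0.27 (SE), adjusted p = 0.0152), and lost its call without MC1 (adjusted p = 0.0579). The count of 4 lower genes moved to 1, 2 and 7 without FC1, FC2 and FC3, and to 0, 2 and 1 without MC1, MC2 and MC3.

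Enzymes of the tricarboxylic acid cycle were split between the tissues. Of 22 tested, 5 were higher in MC (3 with all 22 libraries in the fit) and 6 lower (3 without MC2 or without MC3), with a median of -0.06. Pc, pyruvate carboxylase, which refills the cycle and feeds glyceroneogenesis in fat, had 27.6, 22.1 and 24.5 CPM in the MC libraries, against 1404, 823 and 615 CPM in the FC libraries (log2 fold change -5.25 ± 0.39 (SE), adjusted p = 3.27e-05). Mdh1, the cytosolic malate dehydrogenase, had 225, 276 and 169 CPM in the MC libraries, against 1357, 965 and 674 CPM in the FC libraries (log2 fold change -2.16 ± 0.34 (SE), adjusted p = 0.00133). Got1, the cytosolic aspartate aminotransferase that works beside it in the malate-aspartate shuttle, went the other way, with 129, 228 and 91.1 CPM in the MC libraries, against 15.9, 25.6 and 18.2 CPM in the FC libraries (log2 fold change 2.90 ± 0.37 (SE), adjusted p = 0.000434). Pdk4, the kinase that shuts off pyruvate dehydrogenase during fasting, had 265, 495 and 270.4 CPM in the MC libraries, against 49.3, 58.7 and 73.03 CPM in the FC libraries (log2 fold change 2.503 ± 0.31 (SE), adjusted p = 0.000398). The groups did not overlap for any of these 4 genes.

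Fatty acid oxidation leaned to fat. Of 24 genes tested, 13 were lower in MC (7 without MC1) and 3 higher, and the median log2 fold change was -0.90. Hadha, a subunit of the trifunctional protein of β-oxidation, had 210.5, 252 and 172 CPM in the MC libraries, against 1026, 716 and 627 CPM in the FC libraries (log2 fold change -1.91 ± 0.29 (SE), adjusted p = 0.00114). Acsl1, the acyl-CoA synthetase that primes fatty acids for oxidation and for esterification, had 93.1, 168 and 77.02 CPM in the MC libraries, against 5586, 5316 and 4082 CPM in the FC libraries (log2 fold change -5.48 ± 0.48 (SE), adjusted p = 6.28e-05). The entry enzymes differed in opposite directions. Cpt1a, the liver-type carnitine palmitoyltransferase, had 12.7, 21.1 and 24.99 CPM in the MC libraries, against 52.1, 60.2 and 86.9 CPM in the FC libraries (log2 fold change -1.74 ± 0.32 (SE), adjusted p = 0.00312). Cpt1b, the muscle type, had 103.05, 80.7 and 42.3 CPM in the MC libraries, against 33.99, 24.7 and 14.3 CPM in the FC libraries (log2 fold change 1.62 ± 0.40 (SE), adjusted p = 0.0135), and lost its call without MC1 (adjusted p = 0.0682). Ucp3, the uncoupling protein of muscle, had 226, 360.1 and 204 CPM in the MC libraries, against 43.9, 39.6 and 30.2 CPM in the FC libraries (log2 fold change 2.79 ± 0.29 (SE), adjusted p = 0.000153).

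Of 16 mitochondrial biogenesis regulators tested, 5 were higher in MC (3 without FC2, MC1, MC3 or the filter on low counts) and none lower (1 without MC1). Perm1, a muscle coactivator induced by PGC-1α, had 51.2, 93.1 and 19.8 CPM in the MC libraries, against 0.716, 0.767 and 1.56 CPM in the FC libraries (log2 fold change 5.72 ± 0.64 (SE), adjusted p = 0.000224, and a log2 fold change of 5.06 without MC2). Esrra, the receptor ERRα that drives oxidative genes, had 63.4, 63.4 and 46.6 CPM in the MC libraries, against 25.4, 20.4 and 17.7 CPM in the FC libraries (log2 fold change 1.44 ± 0.26 (SE), adjusted p = 0.00259).

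Adipocyte identity genes were lower in MC. All 26 genes of this list were lower in MC, 25 of them beyond 2-fold, with a median log2 fold change of -5.47. Adipoq, which encodes adiponectin, had 24.8, 86.4 and 292 CPM in the MC libraries, against 13912, 7649 and 7717 CPM in the FC libraries (log2 fold change -6.17 ± 0.94 (SE), adjusted p = 0.00118, and a log2 fold change of -7.51 without MC3), and it lies at chr11:81330293-81344488 on the minus strand. Plin1, the perilipin that guards the adipocyte lipid droplet, had 2.204, 9.602 and 18.4 CPM in the MC libraries, against 3837, 3751 and 2426 CPM in the FC libraries (log2 fold change -8.27 ± 0.72 (SE), adjusted p = 6.02e-05, and a log2 fold change of -9.33 without MC3). Lep, leptin, had 0, 9.602 and 5.91 CPM in the MC libraries, against 1517, 1878 and 893 CPM in the FC libraries (log2 fold change -8.19 ± 0.79 (SE), adjusted p = 0.000102). Cidec, which fuses droplets, had 6.06, 23.04 and 18.2 CPM in the MC libraries, against 2539, 2201 and 1717 CPM in the FC libraries (log2 fold change -7.12 ± 0.54 (SE), adjusted p = 3.32e-05). Pck1, the phosphoenolpyruvate carboxykinase of glyceroneogenesis, had 10.5, 30.7 and 19.5 CPM in the MC libraries, against 3986, 2911 and 2508 CPM in the FC libraries (log2 fold change -7.31 ± 0.53 (SE), adjusted p = 2.99e-05). Tshr, the thyrotropin receptor that fat also carries, had 1.102, 3.84 and 1.36 CPM in the MC libraries, against 307, 212 and 203 CPM in the FC libraries (log2 fold change -7.11 ± 0.43 (SE), adjusted p = 1.2e-05). No MC library reached the lowest FC library for any of these 6 genes, and MC3 held the most Adipoq and Plin1 of the muscle libraries.

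The promoters of Plin1 and Lep are shown as fat counterparts of the muscle windows, also from RefSeq on GRCr8, for Plin1 at chr1:143086099-143086398 on the minus strand and for Lep at chr4:58626288-58626587 on the plus strand. Capitals mark the C/EBP motif TTNNGNAA, the family of CEBPA and CEBPB, searched on both strands, as was the PPAR response element, written here as AGGNCA, any base and AGGNCA, of which neither window holds a match. Both windows also hold CAGCTG, which is not capitalised in them.
Plin1: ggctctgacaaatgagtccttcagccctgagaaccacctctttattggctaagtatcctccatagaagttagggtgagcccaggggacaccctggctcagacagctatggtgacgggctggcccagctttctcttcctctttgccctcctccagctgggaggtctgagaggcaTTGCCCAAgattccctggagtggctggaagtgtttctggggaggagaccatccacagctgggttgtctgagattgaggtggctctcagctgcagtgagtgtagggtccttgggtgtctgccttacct
Lep: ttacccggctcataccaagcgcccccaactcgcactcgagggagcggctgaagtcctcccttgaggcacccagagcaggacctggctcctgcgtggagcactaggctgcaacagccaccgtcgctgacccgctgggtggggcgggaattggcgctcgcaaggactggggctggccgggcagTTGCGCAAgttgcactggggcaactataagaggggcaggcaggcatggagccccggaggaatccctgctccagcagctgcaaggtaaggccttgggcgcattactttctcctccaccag
The motif starts 77 bases before the start in Plin1 and 69 bases before it in Lep. Of the 17 adipocyte identity genes with a window, 47.1% held it, against 41.3% of all windows, a share near the background.

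Fat synthesis was lower in MC. Of 23 lipogenic and triglyceride genes tested, 19 were lower in MC, 16 of them beyond 2-fold, and none higher (1 without FC3 or without MC3), with a median log2 fold change of -2.62. Scd, the stearoyl-CoA desaturase, had 4.96, 33.6 and 44.99 CPM in the MC libraries, against 6446, 22501 and 3853 CPM in the FC libraries (log2 fold change -8.60 ± 1.13 (SE), adjusted p = 0.000516), with FC2 far above the other fat libraries and a log2 fold change of -7.499 without FC2 and -9.26 without MC3. Acaca, the acetyl-CoA carboxylase of lipogenic tissues, had 4.41, 3.84 and 4.54 CPM in the MC libraries, against 65.3, 51.3 and 64.5 CPM in the FC libraries (log2 fold change -3.79 ± 0.29 (SE), adjusted p = 3.32e-05), while its muscle partner Acacb was not called, at 104.70, 58.6 and 17.3 CPM in the MC libraries, against 42.4, 15.8 and 29.2 CPM in the FC libraries (log2 fold change 1.03 ± 0.58 (SE), adjusted p = 0.211). Srebf1, the transcription factor that switches on lipogenic enzymes, had 27.6, 31.7 and 25.9 CPM in the MC libraries, against 548, 358 and 299.7 CPM in the FC libraries (log2 fold change -3.84 ± 0.30 (SE), adjusted p = 3.99e-05). Dgat1, which adds the last acyl chain to triglyceride, had 27.6, 13.4 and 14.3 CPM in the MC libraries, against 488, 385 and 255 CPM in the FC libraries (log2 fold change -4.35 ± 0.39 (SE), adjusted p = 6.42e-05).

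Lipolysis and droplet genes were lower in MC as well. Of 26 tested, 20 were lower, 18 of them beyond 2-fold, and 1 was higher, with a median of -3.88 (-3.67 with genes at 0 in muscle set to their bound). Pnpla2, the lipase ATGL that starts lipolysis, had 71.1, 99.9 and 73.2 CPM in the MC libraries, against 4331, 2368 and 2327 CPM in the FC libraries (log2 fold change -5.22 ± 0.43 (SE), adjusted p = 4.64e-05). Lipe, hormone-sensitive lipase, had 58.4, 99.9 and 52.3 CPM in the MC libraries, against 3166, 1944 and 1696 CPM in the FC libraries (log2 fold change -5.03 ± 0.44 (SE), adjusted p = 6.14e-05). Adrb3, the β3-adrenergic receptor of rodent adipocytes, had 0, 1.92 and 0 CPM in the MC libraries, against 488, 255 and 292 CPM in the FC libraries (log2 fold change -10.19 ± 0.76 (SE), adjusted p = 3.26e-05, and a log2 fold change of -15.77 without MC2, the library that held its only muscle counts, and -8.93 without MC3). Pde3b, the phosphodiesterase through which insulin restrains lipolysis, had 1.102, 1.92 and 3.86 CPM in the MC libraries, against 162, 122 and 178 CPM in the FC libraries (log2 fold change -5.84 ± 0.40 (SE), adjusted p = 2.28e-05, and a log2 fold change of -6.80 without MC3). The gene higher in MC was Fitm1, a droplet-forming protein of muscle, with 107, 102 and 69.5 CPM in the MC libraries, against 0.0326, 0 and 0.277 CPM in the FC libraries (log2 fold change 9.80 ± 0.75 (SE), adjusted p = 3.45e-05, and a log2 fold change of 9.16 without FC2 and 11.95 without FC3). Plin5, the perilipin of oxidative tissues, was not called, at 14.9, 8.64 and 1.36 CPM in the MC libraries, against 8.99, 4.91 and 1.45 CPM in the FC libraries (log2 fold change 0.63 ± 0.88 (SE), adjusted p = 0.621).

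Cholesterol synthesis was lower in MC at smaller folds. Of 22 genes tested, 14 were lower (8 without FC2) and none higher, and the median log2 fold change was -1.52. Insig1, the sterol sensor that holds SREBP in the endoplasmic reticulum, had 24.2, 15.4 and 31.1 CPM in the MC libraries, against 1922, 1578 and 881 CPM in the FC libraries (log2 fold change -5.91 ± 0.45 (SE), adjusted p = 3.42e-05). Cyp51, lanosterol demethylase, had 19.8, 20.2 and 18.9 CPM in the MC libraries, against 68.7, 126 and 57.03 CPM in the FC libraries (log2 fold change -2.10 ± 0.33 (SE), adjusted p = 0.0014). Srebf2, the transcription factor of the pathway, had 20.4, 11.5 and 8.63 CPM in the MC libraries, against 64.3, 80.4 and 54.99 CPM in the FC libraries (log2 fold change -2.32 ± 0.35 (SE), adjusted p = 0.00111). Insig1 changed most of the named genes of this list, and its RefSeq window at chr4:8057720-8058019 on the minus strand of GRCr8 is shown because a short element recurred across the list. Capitals mark the CCAAT box CCAAT on the reverse strand, read here as ATTGG.
Insig1: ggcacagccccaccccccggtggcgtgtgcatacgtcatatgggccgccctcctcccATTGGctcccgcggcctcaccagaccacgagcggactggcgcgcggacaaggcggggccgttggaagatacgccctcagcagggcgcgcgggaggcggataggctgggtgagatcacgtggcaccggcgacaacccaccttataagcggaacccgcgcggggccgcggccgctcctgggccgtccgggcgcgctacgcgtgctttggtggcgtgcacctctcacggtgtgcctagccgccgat
The box starts 193 bases before the start of Insig1. It stood on either strand in 14 of the 16 windows of this list (87.5%) and in 66.7% of the 18 lipogenic windows, against 37.5% of all windows. The pattern CACNNGTG stood in none of the 16 windows and in 7.67% of all windows. This pattern cannot match the E-box CACGTG, which the Insig1 window holds and which was not counted over the windows.

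**Figure D2:**
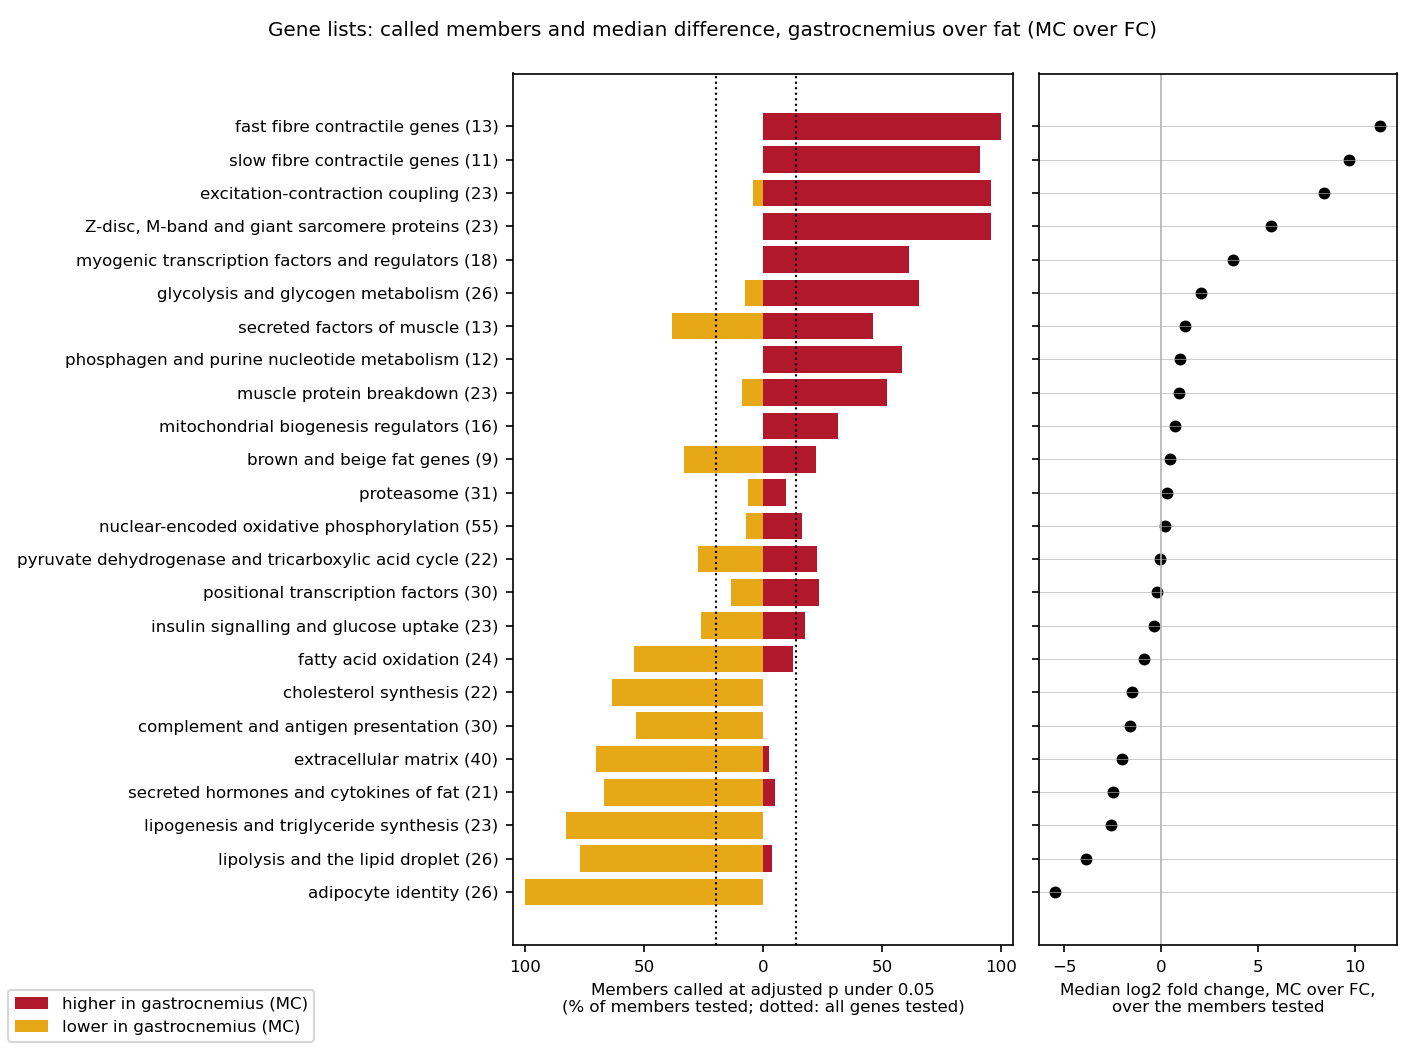
For each of 24 program lists, the percent of members tested that were called higher in MC (bars to the right) or lower in MC (bars to the left), with dotted lines at the shares over all genes tested (13.7% and 19.6%), and at the right the median log2 fold change, MC over FC. The lists of contraction and calcium release reach furthest to the right, adipocyte identity, lipolysis and lipogenesis furthest to the left, and the respiratory and proteasome lists stay near 0 in the median.

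Hormones and cytokines made by fat were lower in MC. Of 21 tested, 14 were lower and 1 higher (2 without FC2, with DESeq2 or with thinned fat counts, and 0 without MC1 or MC3 or with all 22 libraries in the fit), with a median of -2.49. Angptl4, an inhibitor of lipoprotein lipase, had 44.6, 68.2 and 62.5 CPM in the MC libraries, against 722, 737 and 550.5 CPM in the FC libraries (log2 fold change -3.52 ± 0.28 (SE), adjusted p = 3.99e-05). Agt, angiotensinogen, had 15.4, 39.4 and 11.8 CPM in the MC libraries, against 859, 327 and 301 CPM in the FC libraries (log2 fold change -4.58 ± 0.60 (SE), adjusted p = 0.000497, and a log2 fold change of -3.92 without FC1 and -5.24 without MC2). Rarres2, chemerin, had 34.2, 37.4 and 62.7 CPM in the MC libraries, against 219, 243 and 169 CPM in the FC libraries (log2 fold change -2.21 ± 0.29 (SE), adjusted p = 0.000548). Sfrp5, a secreted WNT inhibitor known as an adipokine, was higher in MC, with 22.04, 24.01 and 69.3 CPM in the MC libraries, against 9.702, 0.284 and 4.701 CPM in the FC libraries (log2 fold change 3.01 ± 0.97 (SE), adjusted p = 0.0393), and lost its call without FC3, MC1, MC2 or MC3 (adjusted p = 0.0802, 0.0662, 0.0646 and 0.178). Its log2 fold change was 3.96 without FC1 and 2.46 without FC2.

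Factors that muscle is known to secrete split in both directions, 6 higher and 5 lower in MC of 13 tested (3 lower without FC2 or without MC3). Ostn, osteocrin (musclin), had 52.9, 175 and 217 CPM in the MC libraries, against 0.749, 1.25 and 0.864 CPM in the FC libraries (log2 fold change 7.27 ± 0.59 (SE), adjusted p = 4.31e-05). Fndc5, the precursor of irisin, had 68.9, 97.9 and 33.2 CPM in the MC libraries, against 1.3999, 1.22 and 0.864 CPM in the FC libraries (log2 fold change 5.81 ± 0.47 (SE), adjusted p = 4.5e-05). Igf2, a fetal growth factor, had 459, 360.1 and 259 CPM in the MC libraries, against 42.03, 19.004 and 25.2 CPM in the FC libraries (log2 fold change 3.64 ± 0.37 (SE), adjusted p = 0.000129). Il15, a cytokine of muscle, had 28.1, 20.2 and 18.4 CPM in the MC libraries, against 4.36, 4.74 and 4.39 CPM in the FC libraries (log2 fold change 2.30 ± 0.35 (SE), adjusted p = 0.00109). Ctsb, a lysosomal protease also named as a myokine, was lower in MC, with 417, 459 and 585 CPM in the MC libraries, against 2918, 3143 and 2366 CPM in the FC libraries (log2 fold change -2.53 ± 0.33 (SE), adjusted p = 0.000468), and so was Sparc, a matrix glycoprotein, with 1275, 1474 and 2180.4 CPM in the MC libraries, against 8936, 13863 and 9144 CPM in the FC libraries (log2 fold change -2.70 ± 0.48 (SE), adjusted p = 0.00259).

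Insulin signalling showed a more mixed picture, with 4 of 23 genes higher in MC and 6 lower. The 4 higher genes were Slc2a4, Slc2a12, Pik3ca and Akt1, of which the last 3 were named after their values were seen, and they numbered 2 without FC1, 1 without FC2, 0 without MC1 and 2 without MC2. Slc2a4, the insulin-regulated transporter GLUT4, had 397, 285 and 123 CPM in the MC libraries, against 122, 82.01 and 66.3 CPM in the FC libraries (log2 fold change 1.57 ± 0.42 (SE), adjusted p = 0.0176), and lost its call without MC1 or MC2 (adjusted p = 0.0828 and 0.0568). Insr, the insulin receptor, had 14.3, 2.88 and 8.63 CPM in the MC libraries, against 50.9, 41.6 and 56.8 CPM in the FC libraries (log2 fold change -2.46 ± 0.42 (SE), adjusted p = 0.00217). Irs2, its substrate, had 25.9, 40.3 and 22.04 CPM in the MC libraries, against 137, 109 and 136 CPM in the FC libraries (log2 fold change -2.15 ± 0.27 (SE), adjusted p = 0.000438). Cav1, the coat protein of caveolae, which are dense in adipocytes, had 269, 421 and 289.9 CPM in the MC libraries, against 3229, 3031 and 2168 CPM in the FC libraries (log2 fold change -3.11 ± 0.36 (SE), adjusted p = 0.00025).

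Extracellular matrix was largely a fat program in these libraries. Of 40 genes tested, 28 were lower in MC, 25 of them beyond 2-fold, and 1 was higher, and the median log2 fold change was -2.02. Col4a1, a chain of the basement membrane collagen that surrounds each adipocyte and vessel, had 166, 221 and 229.7 CPM in the MC libraries, against 2584, 2845 and 2319.6 CPM in the FC libraries (log2 fold change -3.65 ± 0.32 (SE), adjusted p = 6.42e-05). Col18a1, another basement membrane collagen, had 39.7, 29.8 and 50.7 CPM in the MC libraries, against 442, 537 and 418 CPM in the FC libraries (log2 fold change -3.52 ± 0.28 (SE), adjusted p = 3.99e-05). Thbs1, thrombospondin 1, had 5.51, 7.68 and 8.86 CPM in the MC libraries, against 397, 496 and 327 CPM in the FC libraries (log2 fold change -5.76 ± 0.32 (SE), adjusted p = 9.5e-06). Loxl2, a collagen cross-linking oxidase, had 6.06, 5.76 and 7.72 CPM in the MC libraries, against 84.97, 102 and 119 CPM in the FC libraries (log2 fold change -3.92 ± 0.27 (SE), adjusted p = 2.51e-05). Dcn, the fibril-binding proteoglycan decorin, was higher in MC, with 2476, 1852 and 2643 CPM in the MC libraries, against 785, 1086 and 1381 CPM in the FC libraries (log2 fold change 1.10 ± 0.34 (SE), adjusted p = 0.0346), and lost its call without FC1, FC2, MC1 or MC3 (adjusted p = 0.0894, 0.0993, 0.0994 and 0.103). The fibril-associated proteoglycan lumican (Lum) was not called, at 170.3, 202 and 273 CPM in the MC libraries, against 136, 282 and 317 CPM in the FC libraries (log2 fold change -0.19 ± 0.34 (SE), adjusted p = 0.71).

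Complement and antigen presentation genes were lower in MC in 16 of 30 cases and higher in none (1 without FC3), with a median of -1.60. Cfd, adipsin, the protease of the alternative pathway that adipocytes secrete, had 83.2, 123 and 259.7 CPM in the MC libraries, against 10000.1, 2819 and 2285 CPM in the FC libraries (log2 fold change -5.01 ± 0.76 (SE), adjusted p = 0.00111, and a log2 fold change of -4.03 without FC1 and -5.64 without MC3). C6, a component of the membrane attack complex, had 1.102, 7.68 and 18.9 CPM in the MC libraries, against 168, 246 and 495 CPM in the FC libraries (log2 fold change -4.88 ± 0.73 (SE), adjusted p = 0.00106, and a log2 fold change of -4.28 without FC3 and -6.38 without MC3). C4a and C4b are near-identical neighbours that share reads, so their own values are uncertain, and they stood at log2 fold changes of -2.999 and -3.09 (-3.59 and -3.71 without MC3).

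Positional transcription factors, which keep the address of a tissue along the body, were called in both directions. The shares over all genes tested were 13.7% higher and 19.6% lower. Of 30 tested, 7 were higher in MC (4 without MC3) and 4 lower (2 without FC1 or without FC3, and 1 with fat counts thinned to muscle depth). Tbx15, a T-box factor known from glycolytic fibres of mice, had 82.1, 82.6 and 74.1 CPM in the MC libraries, against 0, 0.0568 and 0.0691 CPM in the FC libraries (log2 fold change 10.65 ± 0.50 (SE), adjusted p = 9.5e-06). Six2 had 15.4, 14.4 and 9.997 CPM in MC and no count in FC, at least 379-fold higher. Hoxc10, a homeobox gene of the lower trunk, had 47.9, 67.2 and 43.8 CPM in the MC libraries, against 21.3, 22.4 and 19.04 CPM in the FC libraries (log2 fold change 1.33 ± 0.25 (SE), adjusted p = 0.00378). Hoxc6, which acts further forward, had 4.96, 4.801 and 4.54 CPM in the MC libraries, against 21.1, 14.4 and 16.1 CPM in the FC libraries (log2 fold change -1.86 ± 0.37 (SE), adjusted p = 0.0045). Wt1, a factor of mesothelium and visceral fat progenitors, had no count in MC and 7.06, 3.04 and 8.295 CPM in FC, at least 14.4-fold lower in MC.

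Ucp1, the uncoupling protein of brown fat, had no count in any of the 6 libraries, which allows a level of up to 0.413 CPM over MC and 0.0316 CPM over FC. Of 9 genes of the brown and beige list that were tested, 2 were higher in MC (1 without MC1, and 5 with DESeq2) and 3 lower. The 2 higher were the muscle isoforms Cox8b and Cpt1b given above. Cidea, a droplet protein of brown and white adipocytes, had 3.31, 9.602 and 2.499 CPM in the MC libraries, against 91.4, 102 and 45.7 CPM in the FC libraries (log2 fold change -4.21 ± 0.53 (SE), adjusted p = 0.000398, and a log2 fold change of -4.86 without MC2), and Kcnk3, a potassium channel of adipocytes, had 11.02, 4.801 and 20.2 CPM in the MC libraries, against 324, 167 and 202 CPM in the FC libraries (log2 fold change -4.13 ± 0.46 (SE), adjusted p = 0.000217, and a log2 fold change of -4.82 without MC3).

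Proteasome subunits differed little, with a median log2 fold change of 0.29 over 31 genes, of which 23 were positive, 3 were called higher in MC and 2 lower. The count of higher subunits was unstable, at 0 without FC2, 1 without MC1, MC2 or MC3 and 1 with no filter on low counts, but 5 with a filter of 5 CPM in 2 libraries, 6 with DESeq2 or without TMM and 8 with fat counts thinned to muscle depth, while the 2 lower became 1 without FC1, MC2 or MC3. Of 23 genes of muscle protein breakdown, a list of ubiquitin ligases, proteases, autophagy genes and the FOXO factors that control them, 12 were higher in MC and 2, Bnip3 and Ctsl, lower (1 without MC1 or without MC3). Trim63 (MuRF1), which tags myosin for degradation, had 159, 144 and 100.4 CPM in the MC libraries, against 0.260, 0.227 and 1.28 CPM in the FC libraries (log2 fold change 7.84 ± 0.66 (SE), adjusted p = 5.14e-05, and a log2 fold change of 9.09 without FC3). Trim54, the related MuRF3, had 218, 122 and 117 CPM in MC and no count in FC, at least 4509-fold higher. Capn3, the calpain of muscle, had 82.7, 74.9 and 36.8 CPM in the MC libraries, against 0.423, 1.08 and 0.449 CPM in the FC libraries (log2 fold change 6.59 ± 0.53 (SE), adjusted p = 4.17e-05, and a log2 fold change of 7.18 without FC2). Ctsl, a lysosomal protease, was lower in MC, with 173, 207 and 171 CPM in the MC libraries, against 547, 533 and 391 CPM in the FC libraries (log2 fold change -1.42 ± 0.24 (SE), adjusted p = 0.00193).

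In several pairs of related genes that encode the same enzyme or filament in different tissues, the muscle form took most of the pair's transcripts in MC. Of the 30 pairs of such genes, 29 could be compared as the share of the first gene in the summed nuclear TPM of the pair. The muscle creatine kinase Ckm made up 97.4 ± 0.262% in MC and 1.66 ± 2.83% in FC of Ckm and Ckb. The muscle phosphoglycerate mutase Pgam2 made up 93.8 ± 3.19% in MC and 0.834 ± 0.648% in FC of Pgam2 and Pgam1. Eno3 made up 94.1 ± 1.76% in MC and 1.33 ± 0.461% in FC of Eno3 and Eno1, the enolase of most tissues. In all 3 pairs the lowest MC share was above the highest FC share.

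For some pairs the second gene was lower in MC as well. Pfkl, the liver-type phosphofructokinase, was lower in MC (log2 fold change -2.31 ± 0.26 (SE), adjusted p = 0.000241), and Pfkm made up 98.4 ± 0.648% in MC and 34.2 ± 0.555% in FC of that pair. Cox6a1 and Cox8a, the cytochrome oxidase subunits of most tissues, were lower in MC as well, at log2 fold changes of -2.04 and -1.94 (adjusted p = 0.000683 and 0.000689). Cox6a2 made up 85.6 ± 3.703% in MC and 0.0891 ± 0.0639% in FC of its pair, and Cox8b 59.8 ± 8.31% in MC and 0.00806 ± 0.0140% in FC. The oxidase pair of Cox7a1 and Cox7a2 was unlike these, with Cox7a1 at 1.02 ± 0.994% in MC and 0.0578 ± 0.0501% in FC. Cox7a1 was not among the genes tested, and Cox7a2 was not called. Ldhb, the lactate dehydrogenase subunit of oxidative tissues, had 92.02, 118 and 81.1 CPM in the MC libraries, against 1202, 657 and 528 CPM in the FC libraries (log2 fold change -3.04 ± 0.37 (SE), adjusted p = 0.000325), and the uncalled Ldha made up 90.2 ± 2.05% in MC and 42.5 ± 6.21% in FC of that pair. Of this pair, Ldhb alone passed the test.

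The share differed little in some other pairs and more in others. Hk2 made up 41.4 ± 7.77% in MC and 36.2 ± 2.27% in FC of Hk2 and Hk1, and Aldoa 99.9 ± 0.0573% in MC and 99.7 ± 0.139% in FC of Aldoa and Aldoc. Rpl3l, a ribosomal protein of striated muscle, made up 11.7 ± 2.85% in MC and 0.0750 ± 0.0349% in FC of Rpl3l and Rpl3, whose log2 fold changes were 8.89 and 1.37 (adjusted p = 9.5e-06 and 0.00886), so the common form stayed the larger in both tissues. Fabp3, the fatty acid binding protein of muscle, was higher in MC, with 195, 422 and 118 CPM in the MC libraries, against 34.9, 30.2 and 15.4 CPM in the FC libraries (log2 fold change 3.18 ± 0.50 (SE), adjusted p = 0.00136, and a log2 fold change of 2.505 without MC2), but made up 18.4 ± 7.68% in MC and 0.161 ± 0.0374% in FC of Fabp3 and the adipocyte Fabp4. Plin5 made up 52.8 ± 40.7% in MC and 0.210 ± 0.135% in FC of Plin5 and Plin1, and its MC libraries ranged from 10.05% to 91.01%.

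**Figure D3:**
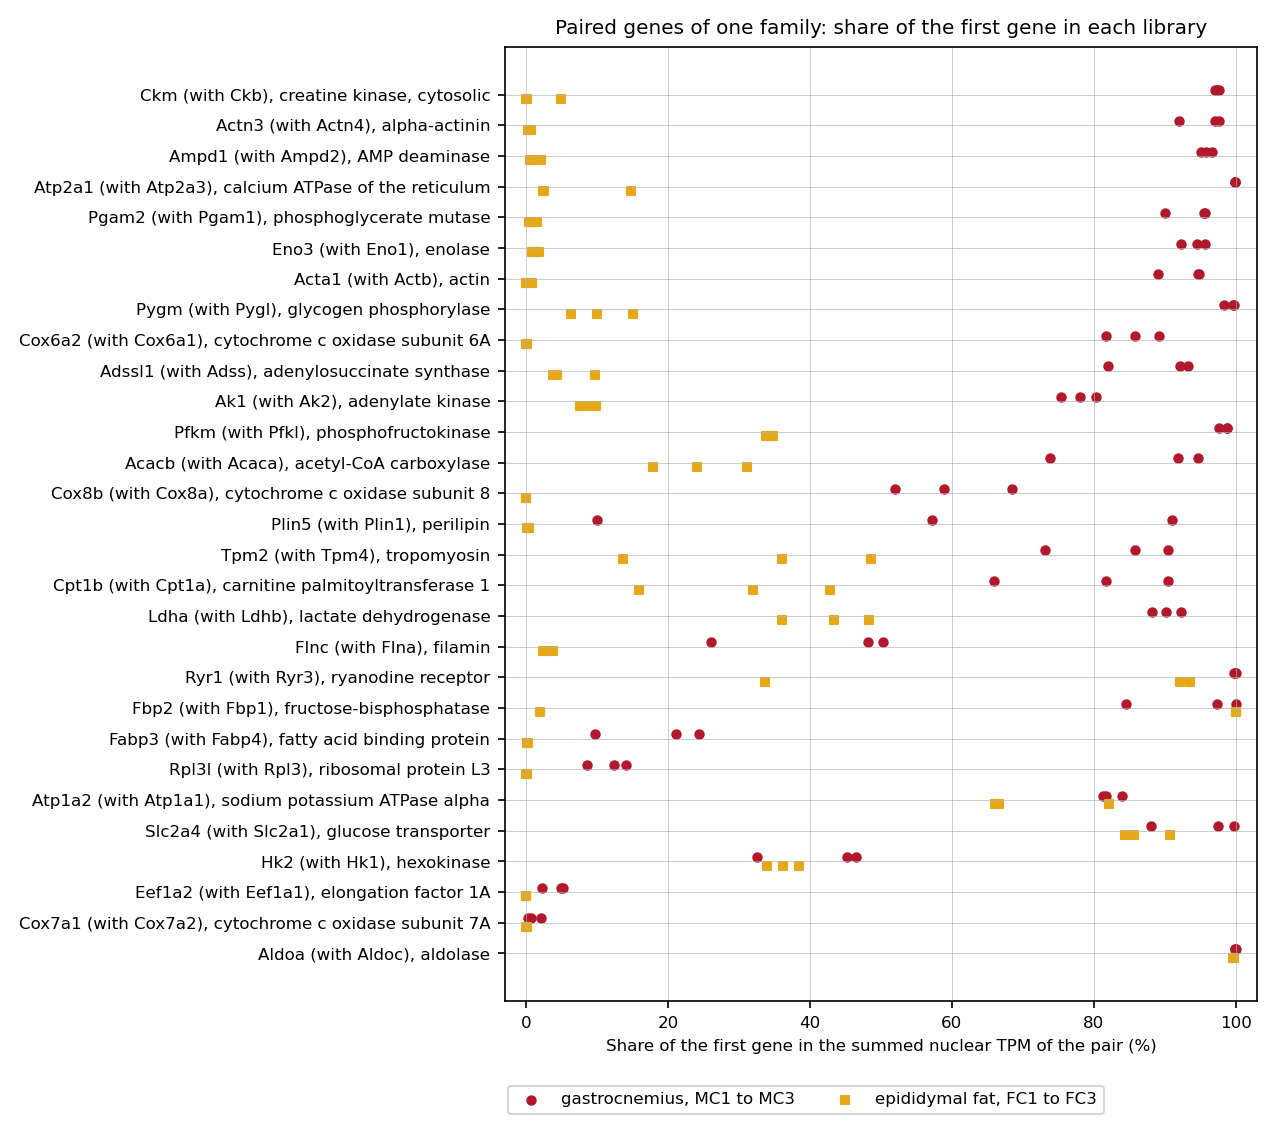
Share of the first gene in the summed nuclear TPM of each of 29 pairs of related genes (percent), with the 3 MC libraries above and the 3 FC libraries below in each row. Ckm, Pgam2 and Eno3 lie above 90% in every MC library and below 5% in every FC library, while Aldoa lies above 99% in both tissues.

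Among genes with a gene name, the most abundant nuclear transcripts per length were filament, calcium pump and housekeeping genes in MC and adipocyte genes in FC. In MC, 2 loci without a gene name led, 65854 ± 64341 TPM for Rn60_1_2212.4, whose CPM ranged from 133 to 74528 between the MC libraries, and 42928 ± 24018 TPM for AABR07046778.1 (SD, n = 3). They were followed by Acta1 at 24864 ± 9348 TPM, and Atp2a1 at 12009.6 ± 5545 TPM and Ckm at 8715 ± 2572 TPM were also among the 10 highest. In FC, Car3, the carbonic anhydrase of adipocytes and slow fibres, led at 37367 ± 4985 TPM, followed by Fabp4 at 33138 ± 3022 TPM and Sncg, γ-synuclein, at 13226 ± 2760.5 TPM (SD, n = 3). Car3 had 1199, 1484 and 1656 CPM in the MC libraries, against 41329.8, 34782 and 36424 CPM in the FC libraries (log2 fold change -4.70 ± 0.66 (SE), adjusted p = 0.000783). Sncg had 48.5, 57.6 and 277 CPM in the MC libraries, against 8525, 5833 and 3992 CPM in the FC libraries (log2 fold change -5.56 ± 0.81 (SE), adjusted p = 0.000899, and a log2 fold change of -6.88 without MC3). Tmsb4x, thymosin β4, which binds actin monomers, stood among the 10 highest in both tissues and was not called (log2 fold change 0.46 ± 0.46 (SE), adjusted p = 0.478), and neither was Fth1, the ferritin heavy chain (log2 fold change 0.30 ± 0.41 (SE), adjusted p = 0.618). Tpt1, a translation-linked tumour protein, was higher in MC (log2 fold change 2.32 ± 0.43 (SE), adjusted p = 0.00299).

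Some of the largest changes were in genes outside the lists. Art1, an ADP-ribosyltransferase of the muscle surface, had 284, 217 and 137 CPM in MC and no count in FC, at least 5851-fold higher. Nat8l, which makes N-acetylaspartate, had 0, 0 and 0.909 CPM in the MC libraries, against 258, 97.97 and 104 CPM in the FC libraries (log2 fold change -8.16 ± 0.73 (SE), adjusted p = 6.56e-05, and a log2 fold change of -7.57 without FC1 and -14.54 without MC3, the library that held its only muscle counts). Bche, butyrylcholinesterase, had 0, 1.92 and 2.73 CPM in the MC libraries, against 266, 325 and 406 CPM in the FC libraries (log2 fold change -7.52 ± 0.55 (SE), adjusted p = 3.11e-05, and a log2 fold change of -8.89 without MC3). Rab3b, a small GTPase of secretory vesicles, had 2.204, 1.92 and 0 CPM in the MC libraries, against 272, 165 and 62.01 CPM in the FC libraries (log2 fold change -7.497 ± 0.91 (SE), adjusted p = 0.000341, and a log2 fold change of -8.70 without MC1 and -6.33 without MC3). The rule that named these 4 genes took only genes whose groups did not overlap.

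Markers of the other cells that both tissues hold differed too. Endothelial markers summed to 752, 759 and 605 CPM in MC, against 1717.5, 1587 and 2124 CPM in FC, with 10 of 12 lower in MC and none higher (1 without FC1). Cdh5, the cadherin of endothelial junctions, had 129, 157 and 87.02 CPM in the MC libraries, against 347, 373 and 280.3 CPM in the FC libraries (log2 fold change -1.43 ± 0.27 (SE), adjusted p = 0.00358). Smooth muscle and pericyte markers summed to 4225, 4691 and 2528.5 CPM in MC, most of it Des, against 2761, 1682 and 5092 CPM in FC, with 1 of 12 higher (2 without FC3) and 5 lower (3 without MC3). FC3 stood apart from the other fat libraries in smooth muscle transcripts. Acta2, the smooth muscle actin, had 89.3, 140.2 and 81.3 CPM in the MC libraries, against 296, 180.5 and 1147 CPM in the FC libraries (log2 fold change -2.397 ± 0.63 (SE), adjusted p = 0.0176), with a log2 fold change of -1.18 without FC3, and lost its call without MC1 or MC3 (adjusted p = 0.0738 and 0.0806). Myh11, the smooth muscle myosin, had 283, 329 and 371 CPM in the MC libraries, against 202, 111 and 977 CPM in the FC libraries and was not called (log2 fold change -0.39 ± 0.66 (SE), adjusted p = 0.69), but without FC3 it was higher in MC (log2 fold change 1.10, adjusted p = 0.0225). Fibroblast and progenitor markers summed to 8406, 6096 and 9419 CPM in MC, against 15463, 13034 and 12985 CPM in FC, with 4 of 12 lower and 1, Dcn, higher (0 without FC1, FC2, MC1 or MC3). Pdgfra, the receptor of fibroblast progenitors, had 55.1, 43.2 and 64.3 CPM in the MC libraries, against 107, 141 and 187 CPM in the FC libraries (log2 fold change -1.41 ± 0.27 (SE), adjusted p = 0.00385).

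The markers of macrophages, T cells and neutrophils that passed the test were lower in MC, and in the T cell and neutrophil lists few were called with fat counts at muscle depth. Macrophage markers summed to 795, 765 and 1651 CPM in MC, against 2034, 4182 and 2358 CPM in FC, with 6 of 15 lower (2 without MC1, 3 without MC2, 10 without MC3) and none higher. FC2 was the highest, and Gpnmb, a glycoprotein of lipid-laden macrophages, had 13.2, 16.3 and 33.2 CPM in the MC libraries, against 93.1, 814 and 70.8 CPM in the FC libraries (log2 fold change -3.90 ± 0.94 (SE), adjusted p = 0.0118). Its log2 fold change was -1.91 without FC2 and -4.51 without MC3, and it lost its call without MC1 or MC2 (adjusted p = 0.0591 and 0.0539). Cd68, a lysosomal macrophage protein, had 15.98, 20.2 and 38.9 CPM in the MC libraries, against 62.5, 243 and 74.03 CPM in the FC libraries (log2 fold change -2.29 ± 0.56 (SE), adjusted p = 0.0128, and a log2 fold change of -1.41 without FC2), and lost its call without MC1 or MC2 (adjusted p = 0.0592 and 0.0533). T cell and NK markers summed to 38.02, 43.2 and 55.9 CPM in MC, against 117, 203 and 145 CPM in FC, with 8 of 9 lower, which became 1 without FC1 or FC2, 5 without MC1, 4 without MC3, 2 with fat counts thinned to muscle depth and 4 with the filter of 5 CPM. Cd3e, a subunit of the T cell receptor complex, had no count in MC and 7.59, 12.1 and 1.97 CPM in FC, at least 18.3-fold lower in MC. B cell markers summed to 9.92, 1.92 and 4.77 CPM in MC, against 54.9, 49.3 and 18.1 CPM in FC. Jchain, the joining chain of secreted antibodies, was lower in MC, and no other of the 4 tested was called, with 0, 1.92 and 0 CPM in the MC libraries, against 37.2, 41.9 and 4.804 CPM in the FC libraries (log2 fold change -6.49 ± 1.33 (SE), adjusted p = 0.0053, and a log2 fold change of -12.13 without MC2 and -5.27 without MC3). Neutrophil markers summed to 7.71, 6.72 and 3.64 CPM in MC, against 363, 826 and 265 CPM in FC, with 3 of 6 lower (1 with fat counts thinned to muscle depth) and none higher. By sign, 5 of the 6 were negative and 1, S100a8, was positive, at a log2 fold change of 0.23. Most of the FC sum was Mpo, myeloperoxidase, with 0, 4.801 and 0.454 CPM in the MC libraries, against 349, 801 and 246 CPM in the FC libraries (log2 fold change -8.78 ± 0.89 (SE), adjusted p = 0.000129, and a log2 fold change of -8.12 without FC2, -10.53 without MC2 and -8.000 without MC3). None of 8 mast cell markers and none of 5 erythroid genes was called, apart from 1 mast cell marker that was lower without FC2 or without MC3. The erythroid genes summed to 9302, 6243 and 6350 CPM in MC, against 7863, 3730 and 7859 CPM in FC.

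Tendon markers were higher in MC, and those of nerve were mixed. Of 9 Schwann cell and nerve markers, 4 were higher in MC (7 with DESeq2) and 1 lower (2 without MC3). S100b, a calcium-binding protein of Schwann cells that adipocytes also make, had 84.9, 155 and 334 CPM in the MC libraries, against 5213, 4396 and 2992 CPM in the FC libraries (log2 fold change -4.45 ± 0.58 (SE), adjusted p = 0.000497, and a log2 fold change of -5.17 without MC3). All 7 tendon markers tested were higher in MC, summing to 474, 1221 and 598 CPM in MC, against 30.5, 24.7 and 61.7 CPM in FC. Tnmd, tenomodulin, had 17.1, 76.8 and 41.6 CPM in the MC libraries, against 0, 0.0568 and 0 CPM in the FC libraries (log2 fold change 10.62 ± 0.92 (SE), adjusted p = 5.97e-05, and a log2 fold change of 12.23 without FC2). Thbs4, a tendon thrombospondin, had 168, 337 and 162 CPM in the MC libraries, against 2.605, 0.852 and 3.01 CPM in the FC libraries (log2 fold change 6.68 ± 0.56 (SE), adjusted p = 5.05e-05). Kera, keratocan, had 58.4, 96.98 and 82.7 CPM in MC and no count in FC, at least 2488-fold higher. Of 7 satellite cell markers, 2 were higher and 2 lower, and 4 were positive and 3 negative, with a median log2 fold change of 0.93. Chodl and Cdh15 lay furthest above 0, and Vcam1 and Itga7 furthest below it. Itga7, an integrin of muscle and smooth muscle that made up most of the FC sum of this list, had 51.2, 49.9 and 29.99 CPM in the MC libraries, against 628, 753 and 495 CPM in the FC libraries (log2 fold change -3.86 ± 0.32 (SE), adjusted p = 4.71e-05). Mesothelial markers were low, at 15.4, 7.68 and 5.68 CPM in MC, against 29.3, 25.5 and 22.3 CPM in FC, with 2 of 6 lower (1 without FC2 or without MC1, and 0 with fat counts thinned to muscle depth). Of 14 testis and epididymis markers in the table only Star, the steroidogenic cholesterol carrier, was tested, with no count in MC and 89.7, 38.3 and 178 CPM in FC, at least 236-fold lower in MC (log2 fold change -13.76, and -12.86 without FC3), while the sperm genes Prm1, Prm2 and Tnp1 had no count in any library, and 11, 11 and 12 of the 14 had no count in FC1, FC2 and FC3. The part of these cell types in the results above was not tested.

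**Figure D4:**
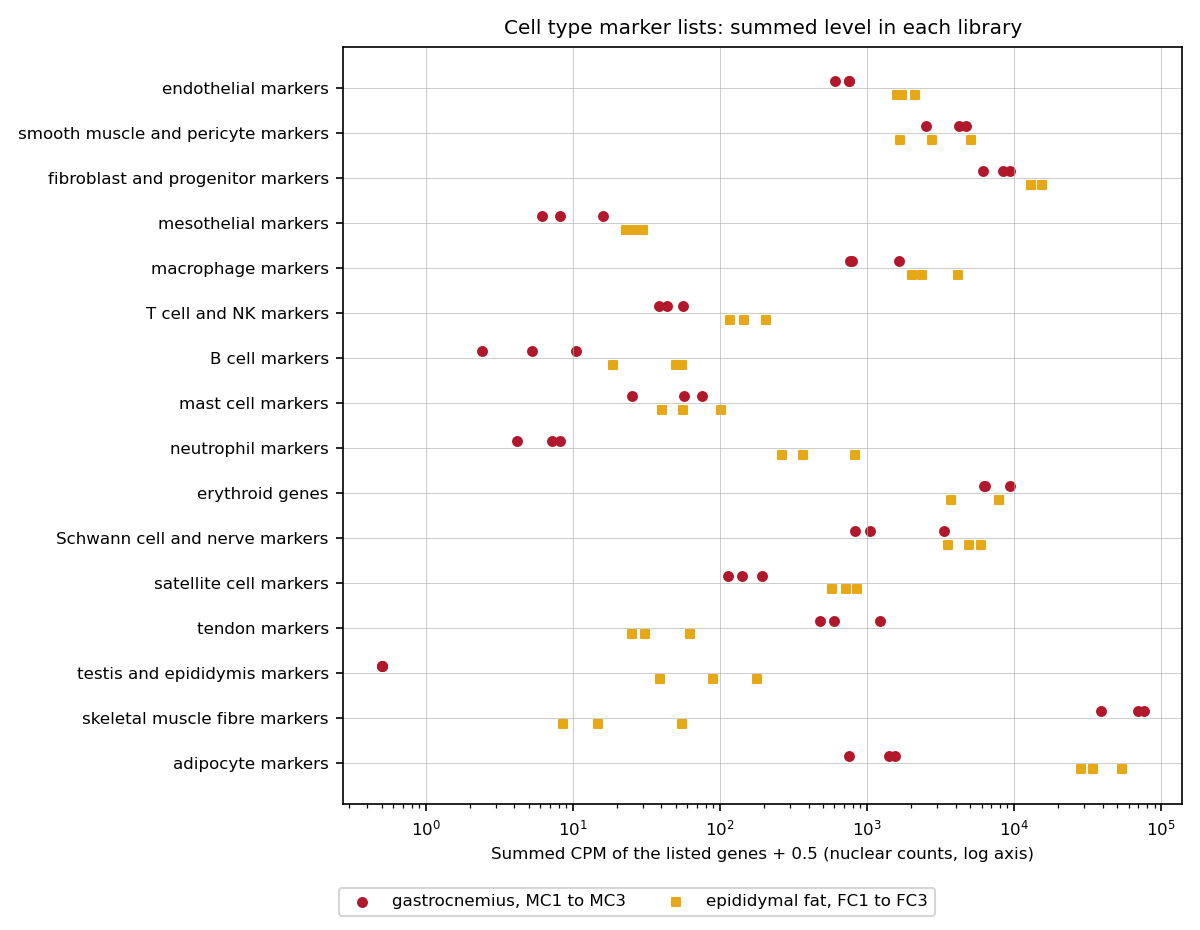
Summed CPM of each marker list (log axis) in each MC library (circles, above) and each FC library (squares, below). The fibre sums lie at or above 38823 CPM in MC and at or below 54.4 CPM in FC, the adipocyte sums lie the other way round, and only the smooth muscle, mast cell and erythroid sums overlap.

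The same tissue contrast was set against the other conditions of the series, in 16 libraries of muscle and fat from rats exercised or kept in hypoxia, which share no library with MC or FC. There 3084 of 14128 genes were higher in gastrocnemius (21.8%) and 4006 lower (28.4%). Of the 4664 genes called in MC over FC that were tested there, 4624 (99.1%) had the same sign and 4119 (88.3%) were called the same way. Those 4119 were 58.1% of the 7090 genes called in the other conditions. The same direction therefore held for nearly all called genes. The median log2 fold change of the fast fibre genes was 11.29 in MC over FC and 6.78 in the other conditions, that of excitation-contraction coupling 8.42 and 5.23, and that of adipocyte identity -5.47 and -5.80.

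Among the fat libraries of the other conditions, 2 carried many more fibre transcripts than the rest. The fibre markers summed to 20269 CPM of nuclear counts, without TMM scaling, in FHE3 (fat, hypoxia with exercise) and 1263 in FCE2 (fat, normoxia with exercise), against 8.05 to 34.3 in the remaining fat libraries of those conditions. Without them, a choice made after seeing the data, in which fat from hypoxia with exercise is 1 library assumed to vary like the others, 2829 genes were higher and 3505 lower of 14682. The fast fibre median was then 11.78, and 3834 of the 4694 genes tested in both were called the same way. Medians of other lists still differed in size without those libraries. For extracellular matrix the median was -2.02 in MC over FC and -0.93 in the other conditions. For muscle protein breakdown it was 0.90 and 2.07, and for the 6 mesothelial markers -1.35 and -5.69. The mesothelial markers summed to 1269 CPM, without TMM scaling, in FH3 (fat, hypoxia without exercise). Their sums were 23.1 to 180 in the remaining fat libraries of those conditions, with a median of 24.8 in FC. In muscle of those conditions they reached at most 20.3. Whether the mesothelial gap holds without FH3 was not tested. Acta1 stood at a log2 fold change of 11.89 in MC over FC, 8.33 with 16 libraries and 14.78 with 14.

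A test of the difference between the 2 contrasts called no gene of 14715 (0.00%) with edgeR's quasi-likelihood fit at an adjusted p under 0.05, while 1046 (7.11%) had an unadjusted p under 0.05. The smallest p-values of that edgeR test were those of Trpm4, a calcium-activated cation channel, at a difference of -2.04 on the log2 scale, and Insig1, at -2.02 (adjusted p = 0.244 for both). Trpm4 had 5.51, 6.72 and 9.32 CPM in MC, against 30.6, 37.1 and 32.97 CPM in FC. Without FHE3 and FCE2, 2 genes were called, Loxl2 at -3.21 and Plec, the cytolinker plectin, at -2.35 (adjusted p = 0.0133 for both). With all 16 libraries, 2 genes were called in opposite directions in the 2 contrasts, named after their values were seen. Cxcl1, a neutrophil chemokine, had no count in MC and 1.37, 3.01 and 0.830 CPM in FC, at least 4.39-fold lower in MC, against a log2 fold change of 2.30 in the other conditions (adjusted p = 0.00266). Rdh5, a retinol dehydrogenase, had no count in MC and 1.37, 6.79 and 1.24 CPM in FC, at least 8.09-fold lower in MC, against 2.31 in the other conditions (adjusted p = 0.0188). The test of the difference gave an adjusted p of 0.529 for both genes. Without FHE3 and FCE2, 3 genes were called in opposite directions, Cxcl1 (log2 fold change 2.48 in the other conditions) and, in place of Rdh5, Copb2 (-0.64 in MC over FC and 0.50 in the other conditions, adjusted p = 0.0375 and 0.0477) and Scarb2 (-0.77 in MC over FC and 0.72 in the other conditions, adjusted p = 0.0419 and 0.0317).

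**Figure D5:**
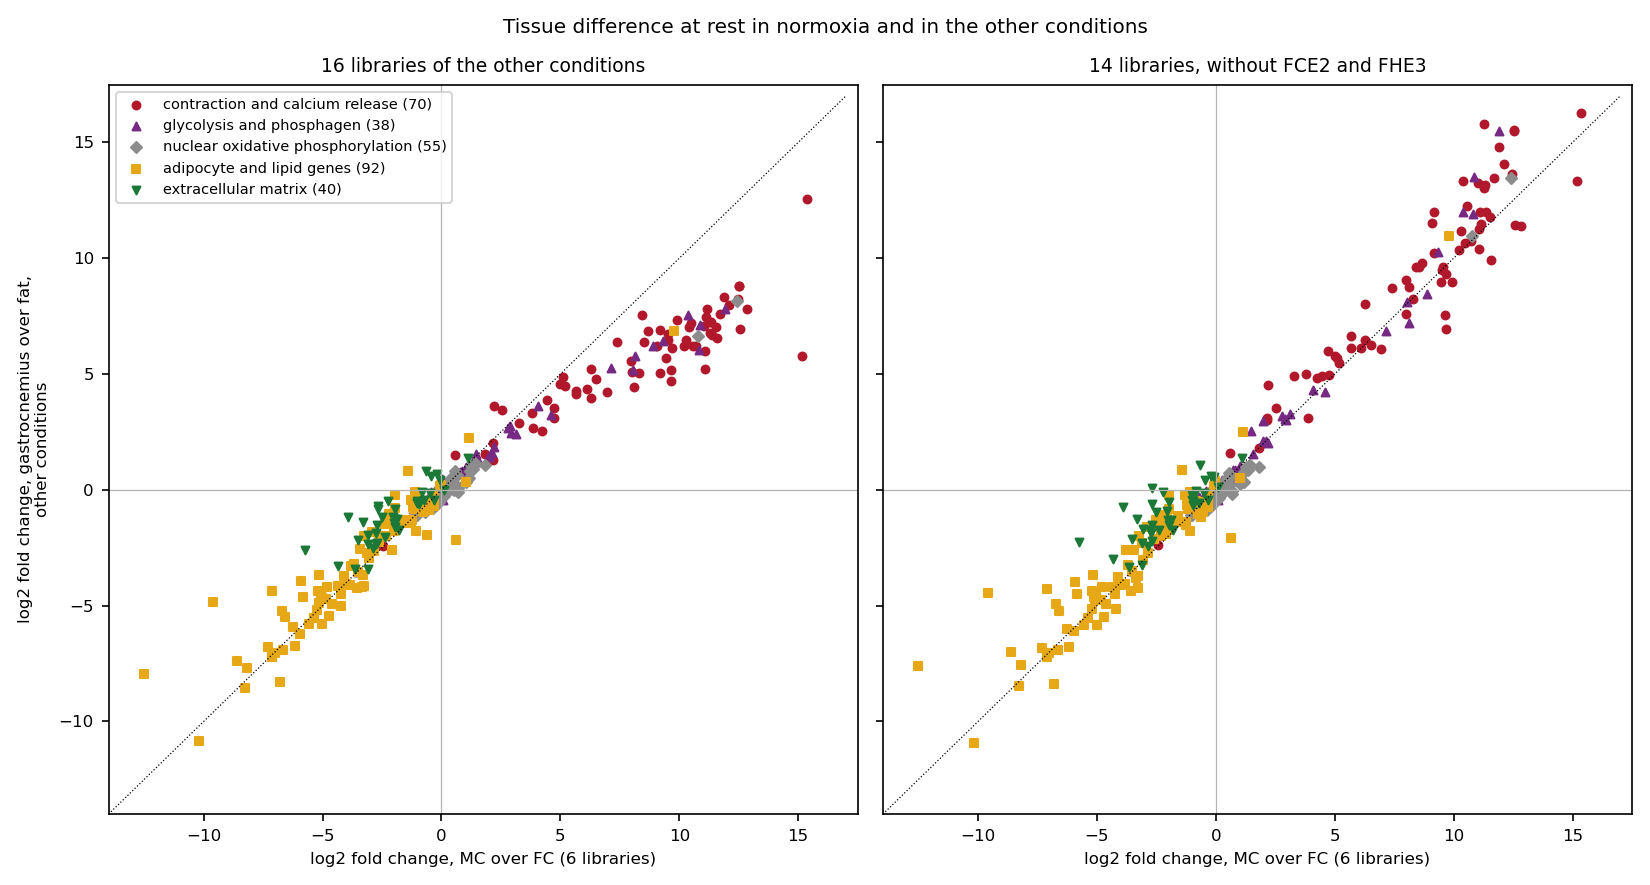
Log2 fold change of each program gene in MC over FC (x axis, 6 libraries) against gastrocnemius over fat in the other conditions (y axis), with 16 libraries at the left and 14, without FCE2 and FHE3, at the right, and the line of equality dotted. The median of the fast fibre genes lies below the line with 16 libraries, at 11.29 in MC over FC and 6.78 in the other conditions, and slightly above it with 14 libraries, at 11.78 in the other conditions.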

How the data were processed

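RNA of gastrocnemius and epididymal fat was sequenced from libraries made, per the study's methods, with the TruSeq stranded mRNA kit. The authors aligned the reads with HISAT2 against Ensembl 99 and deposited 1 table with counts, FPKM and TPM per gene and library. FastQC and Trimmomatic are named in the submitters' processing notes. The counting program and its strand setting are not given in the sources used here. The deposited counts are whole reads per gene, not normalized, and the deposited TPM are scaled by length over all genes, mitochondrial ones included. They were rescaled here to sum to 1000000 over nuclear genes. The 22 columns of FPKM were not used.

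The 37 mitochondrially encoded genes were left out before scaling. Counts of MC and FC were scaled by TMM on nuclear counts, filtered with filterByExpr and tested with edgeR 4.0.16 (quasi-likelihood test, and glmTreat beyond 2-fold) in R 4.3.3 with limma 3.58.1, with no covariate, and with Benjamini-Hochberg adjustment over the 14323 genes tested. The common dispersion was 0.148. Python 3.11.15, numpy 2.4.6, scipy 1.17.1, pandas 2.3.3 and matplotlib 3.10.9 served for the rest. A gene at 0 in a group was given a fold bound from 3 counts over that group. This floor covers counting error only. On simulated data with 100 genes changed by each fold, the MC against FC test over 14498 genes recovered 5% of 2-fold and 62% of 4-fold changes, and called 3 unchanged genes.

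The members and the 40 gene lists were chosen with earlier results of these data known. Of 729 list genes, 694 were found by symbol, 11 by another symbol and 3 by a RefSeq synonym, and 21 were not matched. Where a symbol had several rows, as Hba-a2 has, the row with the highest total was used. Genes were named by rule. The rule took, in each direction, the 10 genes with a symbol and the largest change, among called genes whose mean in the tissue of higher level was 100 CPM or more and whose groups did not overlap, and the 10 genes of highest TPM in each tissue. It also took up to 5 called members of each list in its main direction and up to 3 in the other, both genes of each related pair, and the first 3 genes of each marker list. Some genes this rule names are not reported here. Genes named beyond it were chosen after their values were seen, among them Slc2a12, Pik3ca, Akt1, Ucp1, Trpm4 and Plec. Promoters and their motif shares came from RefSeq windows on GRCr8. Alternatives changed the scaling, the filter, the tool (DESeq2 1.42.0), the libraries and the depth.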

Additional observations from a re-analysis of the deposited data

Results flagged for a closer look

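The mitochondrially encoded genes were outside the comparison of nuclear genes. They took 93.5 ± 3.28% of all counts in MC and 15.9 ± 0.785% in FC (SD, n = 3 each), a difference of 77.7 percentage points, and the groups did not overlap (exact permutation p = 0.1, two-sided, the smallest that 3 against 3 allows). It is given here because it is a signal in data that the comparison did not use.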

How the results depend on the processing

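With 1798025 nuclear counts or fewer in MC1 and MC2, low muscle genes limit the precision, and a p that misses the threshold there does not show equal levels. Over leaving out each library in turn, the genes called in MC against FC numbered 3431 (without FC2) to 4662 (without FC3), those called beyond 2-fold 1707 to 2160, against 4774 and 2178 with all 6 libraries. DESeq2 called 5522 genes, 1704 of them beyond 2-fold, and thinning fat counts to muscle depth left 4134. All 16 alternatives of the count of called genes stayed within 1.5 times of it. Of the 234 named genes called, 193 kept their call and direction in every alternative run on them and 41 lost the call in 1 or more, and none changed direction while called. Of the uncalled ones, Myh11 turned round without FC3, at a log2 fold change of 1.10, and ranged from -0.86 to 1.10 over the libraries left out. FC3 held most of its fat counts. The count of called members moved by more than 1.5 times in 91 alternatives of a list and by less in 1189, and is given beside the lists where an alternative decided them.

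Fat and muscle libraries of the same number were not paired by the labels, and their deviations correlated at 0.0953, -0.0727 and -0.0147. A replicate block on that number gave 4132 called genes, 1937 of them beyond 2-fold. Without FCE2 and FHE3, the test of the difference between MC over FC and the other conditions called 2 genes, Loxl2 and Plec, against 0 with all libraries. The cause was not tested. In the other conditions themselves 7090 genes were called, and 6334 without FCE2 and FHE3, a choice made after seeing the data.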
